A study of Drosophila melanogaster with 20 samples.

Results

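Neuropeptides are short secreted signalling molecules, and their precursor genes were followed here together with the genes of the enzymes that process the precursors. The genes were listed by function: 33 peptide precursor genes and 5 processing enzyme genes (amon, svr, Pal1, Pal2 and Phm), 38 in all. Of these, 28 peptide genes and 5 enzyme genes, 33 together, had a probe set with a single gene symbol, among 11981 named genes on the array. The genes AstA, Tk, Dsk, Hug and RYa were not analysed here. Only Phm had more than 1 probe set.

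A peptide gene is translated into a precursor protein that enters the secretory pathway and is packed into dense core vesicles. There a prohormone convertase (in flies the product of amon) cuts at pairs of basic residues, a carboxypeptidase (the product of svr, also called silver) trims the ends, and a hydroxylase and lyases (the products of Phm, Pal1 and Pal2) add the amide group that many peptides need for activity. In the fly brain most neuropeptides are made by small sets of neurons or neurosecretory cells, while the processing enzymes are shared by many peptidergic cells. Released peptides act mainly on G protein-coupled receptors and are degraded by membrane peptidases such as the neprilysins.

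Expression was measured on single-channel arrays. The RNA came from brains of adult Drosophila melanogaster, with 20 arrays in 4 groups. Whole brains were of wild-type Canton S flies, with 5 brains pooled per array. The 3 other groups were GFP-positive cells sorted from pools of 10 to 15 brains: ELAV-GFP cells (called neurons here), REPO-GFP cells (all glia) and 9.137-GFP cells (surface glia, the cells of the blood-brain barrier). Both sexes were pooled in every sample, age was not given, and replicates came from different bottles and days. The brains for all 3 sorts were dissociated with collagenase at 2 mg/mL and 37 °C. Neurons were dissociated with shaking at 1000 rpm for 20 min, all glia at 500 rpm for 20 min and surface glia at 500 rpm for 5 min. Line, dissociation and sorted cell type therefore cannot be told apart in any comparison with or between the sorts. The ELAV, REPO and 9.137 labels name the line that marked the cells, and each sort can hold only those cells that survived dissociation.

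Levels are the deposited log2 values. A gene was called higher or lower when the adjusted p of limma's test over all 20 arrays was under 0.05 and the groups differed by at least 1 log2 unit. As a measure of background, the 95th percentile of 44 negative control probe sets averaged 3.72 on the whole-brain arrays and 4.39, 5.15 and 5.23 on those of neurons, all glia and surface glia. A gene below that percentile on all 5 arrays of a group is described as within the controls. Its difference from another group is then given as a lower bound ("at least").

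The labelled cell types were only partly borne out by their markers. The neuronal gene elav was at 13.04 ± 0.13 (SD, n = 5) in neurons and still at 12.60 ± 0.41 and 12.02 ± 0.69 in the all-glia and surface-glia sorts. The 3 neuronal markers measured had a mean level of 13.1 to 13.3 per array in neurons, 12.7 to 13.1 in all glia and 11.8 to 13.0 in surface glia. The glial gene repo averaged 10.11 in whole brain, 5.62 in neurons, 7.85 in the all-glia sort and 10.66 in surface glia, so all glia lay below whole brain for their own marker. The astrocyte gene Gat was at 11.59 in whole brain and within the controls in both glial sorts. The surface glia markers moody, Mdr65 and Indy had means of 11.16, 12.54 and 12.45 in surface glia. The eIF-4a control, whose 3′ signal exceeds its 5′ signal more where RNA is shorter, had a gap of 1.98 to 2.58 in whole brain. The gap was 4.50 to 5.65 for neurons, 2.37 to 5.92 for all glia and 3.64 to 4.53 for surface glia. The same gap for the GAPDH control was 3.03 to 3.35 in whole brain, 3.76 to 5.14 in neurons, 3.63 to 5.19 in all glia and 2.92 to 4.59 in surface glia, where it overlapped whole brain. Whether RNA quality or neuronal RNA in the glial sorts shaped the values below was not tested.

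More peptide and processing enzyme genes were called lower than higher in each sort against whole brain, and in neurons and all glia 20 of the 33 were not called. In neurons 13 of the 33 genes were called lower and 0 higher, when 10.5% of all named genes were lower and 3.46% higher. At an unadjusted p under 0.05, 16 were lower and 0 higher, against 16.4% and 19.4% of all named genes. In all glia 11 were lower and 2 higher, against 15.8% and 20.7% of all named genes. In surface glia 20 were lower and 3 higher, against 20.8% and 29.1%. The median log2 difference from whole brain over the 33 genes was −1.81 for neurons, −0.96 for all glia and −1.83 for surface glia. Over all named genes it was 0.22, 0.16 and 0.21. These shares are not matched for brightness. On the whole-brain arrays 96.4% to 100% of the peptide genes exceeded the controls, against 76.2% to 77.8% of all named genes. A gene near the controls has little room to be called lower, and the share among equally bright genes was not computed. The 3 comparisons with whole brain share the whole-brain arrays. In these pooled samples fewer cells of a type and less RNA per cell cannot be told apart.

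Between the sorts the direction was mixed. All glia had 4 genes higher and 0 lower than neurons, when 3.88% of all named genes were higher and 4.73% lower. At an unadjusted p under 0.05 limma gave 10 higher and 0 lower, against 25.6% and 13.2% of all named genes, so that the share of higher members was near that of all genes. Surface glia had 3 higher and 9 lower than neurons, against 12.1% and 16.3%. Surface glia had 1 higher and 4 lower than all glia, against 3.05% and 2.38%, and none of these 5 calls held when only the 2 glial groups were fitted. In that fit only 0.167% of all named genes were called higher and 0.0334% lower. The fit over all 20 arrays shares 1 spread among groups whose own spreads differ, with a median SD per gene of 0.153 for whole brain, 0.275 for neurons, 0.605 for all glia and 0.627 for surface glia.

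Genes whose 5 arrays in one group did not overlap the 5 in another were also counted. Against whole brain, 3 members were higher and 22 lower in neurons without overlap, as were 30.7% and 18.4% of all named genes. For all glia the counts were 3 and 11 (32.5% and 17.0% of all named genes), and for surface glia 2 and 17 (35.7% and 18.0%). Against neurons they were 6 and 2 for all glia (13.1% and 5.05%) and 7 and 4 for surface glia (20.8% and 9.38%). The share of members higher in surface glia was near that of all genes. Those 7 include Pdf and Trissin, within the controls in both groups, and CCAP, whose neuron mean was below that of the control percentiles. Between the glial sorts ITP alone was higher and CCHa2 alone lower in surface glia (2.01% and 0.96%).

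**Figure D1:**
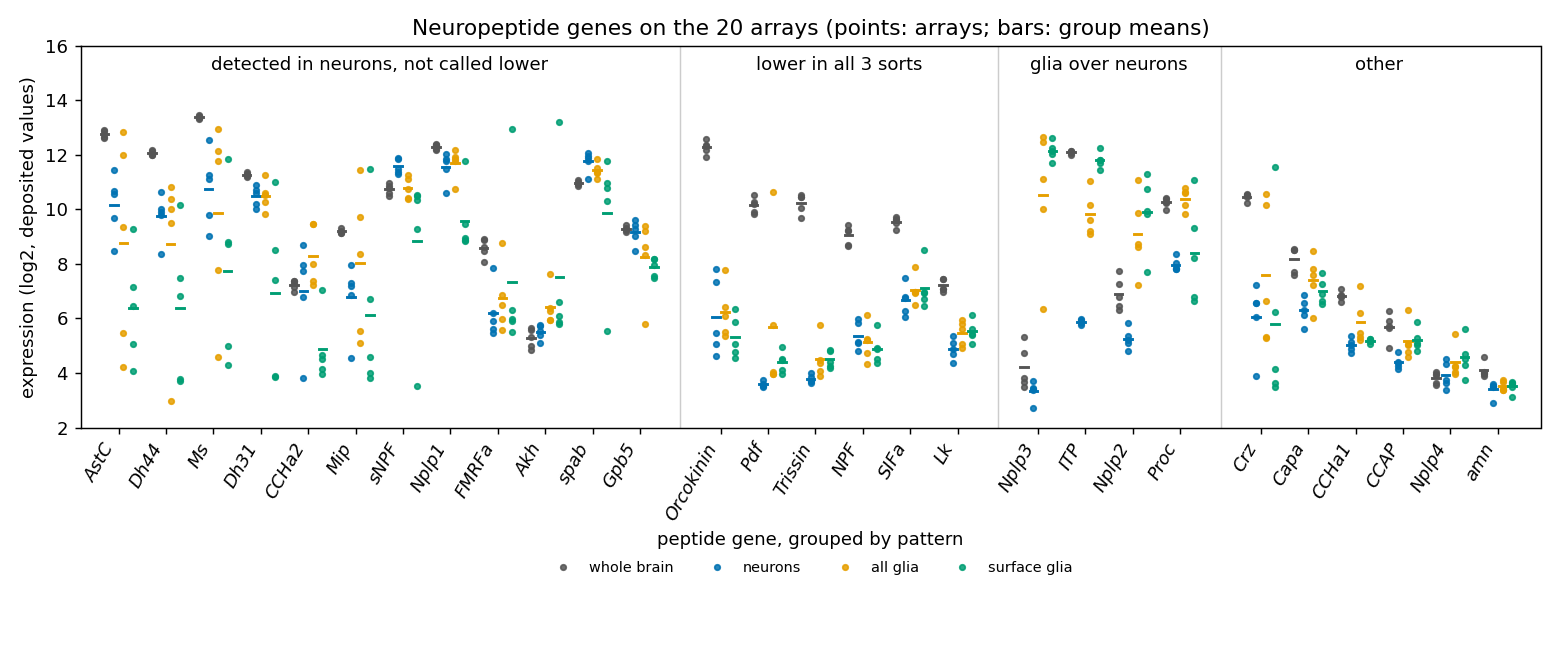
Level of each of the 28 peptide genes on every array (log2, y axis; 4 colours for the 4 groups, points for arrays, bars for group means), with genes on the x axis grouped by the calls as the panel labels say. The 6 genes lower in all 3 sorts are highest on the whole-brain arrays except for 1 all-glia array of Pdf at 10.63, while Nplp3, ITP and Nplp2 sit higher in both glial sorts than in neurons.

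The genes Orcokinin, Pdf, Trissin, NPF, SIFa and Lk, and the enzyme gene svr, were lower than whole brain in each of the 3 sorts. All 21 of these calls held under every one of the 34 other settings tried.

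Trissin, which encodes a cysteine-rich peptide, was at 10.52, 10.06, 10.44, 9.69 and 10.47 on the whole-brain arrays. It was at 3.72, 4.01, 3.84, 3.62 and 3.70 in neurons. It was at 4.06, 4.37, 3.90, 5.76 and 4.49 in all glia and at 4.20, 4.40, 4.84, 4.81 and 4.26 in surface glia. No array of any sort exceeded its controls, and no sort overlapped whole brain. The fall was at least 5.84 in neurons (fitted −6.46, SE 0.28, limma adjusted p = 3.76e-12), at least 5.09 in all glia and at least 5.01 in surface glia.

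Pdf encodes pigment-dispersing factor, the output peptide of a small set of circadian clock neurons. Its level was 10.52, 9.91, 10.19, 10.27 and 9.84 in whole brain. In neurons it was 3.50, 3.51, 3.57, 3.59 and 3.75, all within the controls, and the fall was at least 5.75 (limma adjusted p = 1.07e-05). In surface glia it was 3.97, 4.10, 4.47, 4.97 and 4.50, also within the controls, a fall of at least 4.92. In all glia replicates 1 to 4 were at 3.95, 3.97, 4.03 and 5.77 and replicate 5 was at 10.63, above every whole-brain array. The fitted difference of all glia from whole brain was −4.48 (SE 0.85, limma adjusted p = 0.000314) with that array and −5.72 (SE 0.32) without it.

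Orcokinin, the gene of the orcokinin peptides, was at 12.35, 11.94, 12.34, 12.18 and 12.60 in whole brain. On the neuron arrays it was at 5.07, 7.82, 5.46, 7.34 and 4.63, on all glia at 5.37, 7.78, 5.49, 6.10 and 6.41 and on surface glia at 5.88, 5.08, 4.56, 6.36 and 4.77. The sorts lay at least 4 log2 units below every whole-brain array. The differences from whole brain were −6.22 in neurons (SE 0.56, limma adjusted p = 1.01e-07), −6.05 for all glia and −6.95 for surface glia.

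The other genes of this group fell by less. NPF, the fly counterpart of neuropeptide Y and a feeding signal, was at 9.22, 9.42, 9.24, 8.70 and 8.65 in whole brain and at 5.13, 5.10, 5.97, 5.82 and 4.80 in neurons. It was at 4.32, 6.11, 4.72, 5.21 and 5.26 in all glia and, within the controls, at 4.35, 4.88, 4.51, 5.76 and 4.93 in surface glia. The difference from whole brain was −3.68 in neurons (SE 0.33) and the fall in surface glia at least 3.82. The all-glia mean was below that of the control percentiles, so the fitted difference of −3.92 is of uncertain size.

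SIFa, the gene of a peptide made by a few cells of the pars intercerebralis, was at 9.49, 9.73, 9.60, 9.66 and 9.26 in whole brain and at 6.05, 6.78, 6.76, 7.50 and 6.29 in neurons. In all glia SIFa was at 6.93, 6.48, 6.96, 7.90 and 6.97 and in surface glia at 6.45, 6.92, 6.70, 8.50 and 6.99. The differences from whole brain were −2.87 for neurons (SE 0.35), −2.50 for all glia and −2.44 for the surface-glia sort. Lk, the gene of the diuretic peptide leucokinin, was at 7.10, 7.45, 7.46, 7.08 and 6.97 in whole brain and at 4.70, 5.11, 4.88, 5.37 and 4.37 in neurons. On the all-glia arrays Lk was at 4.90, 5.62, 5.07, 5.81 and 5.96 and on those of surface glia at 5.40, 5.43, 5.08, 6.14 and 5.63, with differences from whole brain of −2.33 (SE 0.25), −1.74 and −1.68 in the order neurons, all glia, surface glia. No array of any sort reached the whole-brain range of NPF, SIFa or Lk. The insulin-like peptide genes Ilp2 and Ilp5, which mark neurosecretory cells and are not on the list, were also called lower in each sort. Ilp2 averaged 11.86 in whole brain and 5.31, 5.54 and 5.62 in neurons, all glia and surface glia, and Ilp5 averaged 11.43 and 4.77, 5.43 and 5.72. In neurons the differences were −6.55 for Ilp2 (limma adjusted p = 2.73e-06) and −6.65 for Ilp5 (3.52e-12).

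A further set of 12 peptide genes was above the controls on at least 3 neuron arrays and was not called lower in neurons than in whole brain: AstC, Dh44, Ms, Dh31, CCHa2, Mip, sNPF, Nplp1, FMRFa, Akh, spab and Gpb5. A missed call does not show an equal level. Of the 22 members lower in neurons without overlap, AstC, Dh44, Ms, Dh31, Mip, Nplp1 and FMRFa belong to this set. The 3 that were higher without overlap were sNPF, spab and the enzyme gene Pal1.

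Myosuppressin, the product of Ms, inhibits muscle contraction. Ms was at 13.39, 13.32, 13.34, 13.44 and 13.47 in whole brain and at 12.55, 9.78, 11.28, 11.10 and 9.04 in neurons. AstC, the gene of allatostatin C, was at 12.78, 12.65, 12.88, 12.63 and 12.93 in whole brain and at 10.58, 11.45, 9.70, 10.68 and 8.49 in neurons. Dh44, the gene of a diuretic hormone related to vertebrate corticotropin-releasing factor, was at 12.14, 12.01, 12.01, 12.04 and 12.20 in whole brain and at 9.80, 10.63, 9.91, 10.02 and 8.35. In each of the 3 genes every neuron array lay below every whole-brain array, and neuron replicate 5 was the lowest. The differences were −2.64 for Ms, −2.59 for AstC and −2.34 for Dh44, with limma adjusted p of 0.173, 0.145 and 0.171 in the fit of all 20 arrays.

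When only the neuron and whole-brain arrays were fitted, the same differences had adjusted p of 0.00111 for Ms, 0.000389 for AstC and 0.000118 for Dh44. FMRFa (−2.39), Mip (−2.43) and Nplp2 (−1.65) were also called in that fit. It gave 19 members lower in neurons, against 12.9% of all named genes, and the 13 of the fit over all arrays were among them. For AstC, Ms and Dh44 the SD was 2.01 to 3.85 in the glial sorts and 0.06 to 1.37 in whole brain and neurons.

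Other genes of the set differed from whole brain by less than 1 log2 unit in neurons. sNPF, the gene of short neuropeptide F, was at 10.74 ± 0.20 in whole brain and 11.58 ± 0.27 in neurons, and the arrays did not overlap. spab was at 10.96 ± 0.08 and 11.77 ± 0.38, again without overlap. Their differences of 0.85 and 0.81 were under the threshold of 1, with adjusted p of 0.000499 and 0.00126 when only those groups were fitted. Gpb5, a glycoprotein hormone subunit gene, was at 9.29 ± 0.10 and 9.16 ± 0.44, a difference of −0.13 (SE 0.46). Nplp1 was at 12.30 ± 0.09 and 11.55 ± 0.55, and the calcitonin-like diuretic hormone gene Dh31 at 11.28 ± 0.08 and 10.49 ± 0.35, and neither overlapped whole brain. CCHa2, a peptide gene known for its response to nutrients, was at 7.36, 7.29, 7.16, 7.36 and 6.96 in whole brain. On the neuron arrays it was at 6.78, 8.68, 7.73, 7.97 and 3.82, so that 3 arrays lay above whole brain and 1 was under the percentile of its controls.

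**Figure D2:**
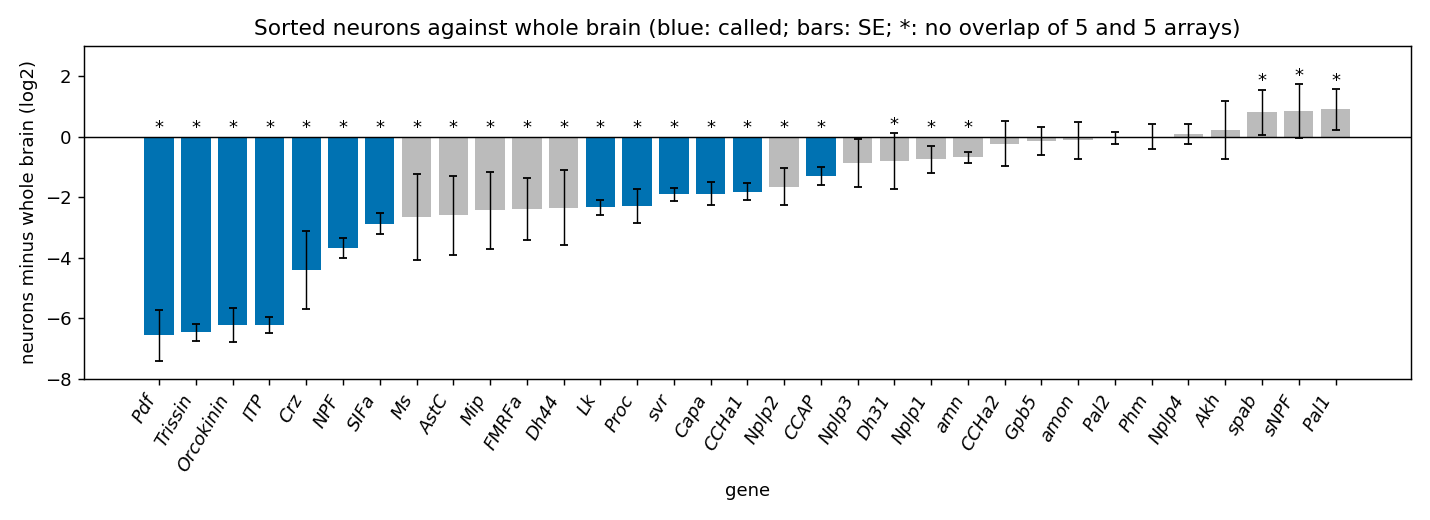
Difference of neurons from whole brain for each of the 33 genes (log2, y axis; bars are differences, lines are standard errors, blue bars are called, stars mark genes whose 5 and 5 arrays did not overlap). The bars run from −6.56 for Pdf to 0.90 for Pal1, and grey bars with a star are genes that did not overlap but were not called.

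Of the 28 peptide genes, 4 were called higher in all glia than in neurons: Nplp3, ITP, Nplp2 and Proc (14.3%, against 3.88% of all named genes). The first 3 were also called higher in surface glia than in neurons (10.7%, near the 12.1% of all named genes). Nplp3 and Nplp2 encode neuropeptide-like precursors, ITP encodes ion transport peptide, a hormone of water and ion balance, and Proc encodes proctolin, which acts on muscle.

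Nplp3 was at 2.71, 3.36, 3.44, 3.72 and 3.40 in neurons, within the controls on all 5 arrays, and at 3.82, 4.74, 3.48, 5.31 and 3.66 in whole brain. On the all-glia arrays it was at 10.00, 11.11, 12.49, 12.66 and 6.35, and on surface glia at 12.15, 12.27, 11.69, 12.62 and 12.02. The lowest glial array, all glia replicate 5, still lay above every neuron and whole-brain array. The rise over neurons was at least 6.13 in all glia (limma adjusted p = 6.16e-06) and at least 7.76 in surface glia (adjusted p = 1.39e-07). Over whole brain it was 6.32 (SE 0.80) and 7.95 (SE 0.80).

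ITP was at 12.15, 12.14, 12.09, 11.99 and 12.10 in whole brain and fell to 5.86, 5.75, 5.85, 5.95 and 5.98 in neurons. It was at 9.09, 9.20, 11.05, 10.18 and 9.61 in all glia and at 11.80, 11.71, 12.25, 11.44 and 11.80 in surface glia. All glia lay between the other groups without overlap, while surface glia overlapped whole brain. The difference of neurons from whole brain was −6.22 (SE 0.28, limma adjusted p = 4.53e-12). Surface glia were above neurons by 5.92 and all glia by 3.95. The difference between surface glia and whole brain was −0.29 (SE 0.28, adjusted p = 0.36). Surface glia exceeded all glia by 1.97 with an adjusted p of 0.000377 over all arrays and 0.0784 with only those groups fitted.

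Nplp2 was at 6.80, 6.31, 6.44, 7.73 and 7.27 in whole brain and at 5.11, 5.35, 4.81, 5.21 and 5.84 in neurons. It was at 11.08, 9.88, 8.75, 8.61 and 7.23 in all glia and at 9.83, 9.93, 11.31, 10.76 and 7.69 in surface glia. Both glial sorts were above all neuron arrays but reached down into the whole-brain range. Nplp2 was higher than in neurons by 3.85 in all glia (SE 0.62, limma adjusted p = 0.000583) and by 4.64 in surface glia (adjusted p = 2.48e-05). Over whole brain it was higher by 2.20 and 2.99, and the first of these calls ended when replicate 2 of every group was left out (adjusted p = 0.0522).

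Proc differed between the glial sorts. It was at 10.24, 10.43, 10.40, 9.97 and 10.27 in whole brain, 7.80, 8.35, 7.86, 7.82 and 8.04 in neurons and 9.82, 10.16, 10.60, 10.65 and 10.78 in all glia. On surface glia it was at 11.08, 6.64, 6.80, 8.23 and 9.32. All glia were above neurons by 2.43 (SE 0.57, limma adjusted p = 0.0118), a call that ended without replicate 4 or 5 of every group (highest adjusted p = 0.0587). Surface glia differed from whole brain by −1.85 (adjusted p = 0.00787) and from all glia by −1.99 (adjusted p = 0.0451). The last call ended in 28 of 34 other settings, among them every setting that left out an array of any group except surface glia 1 or 5.

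Markers of cells outside the brain also differed between the groups, not all in 1 direction. The yolk protein gene Yp1, a fat body product, averaged 7.27, 10.39 and 12.69 in neurons, all glia and surface glia, and Yp2 averaged 6.13, 8.92 and 11.68. The lipid carrier gene apolpp, another fat body marker, averaged 8.28, 9.93 and 8.27 in that order and 10.97 in whole brain, and was called lower in surface glia than in whole brain (−2.71, limma adjusted p = 0.0108). All 6 fat body markers were measured, with a mean level per array of 5.53 to 6.02 in neurons, 6.87 to 7.79 in all glia and 7.81 to 9.21 in surface glia, while Fbp1 was within the controls in both glial sorts. The 5 hemocyte markers had means of 3.84 to 4.09, 4.85 to 5.88 and 5.18 to 6.49 in the same order, with He within the controls in all 4 groups. Hml was within the controls in neurons. The mean control percentile was 4.39 in neurons, above the hemocyte means there. In all glia and surface glia it was 5.15 and 5.23, inside the range of the hemocyte means. The part of such cells in the levels of Nplp3, ITP, Nplp2 and Proc was not tested.

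**Figure D3:**
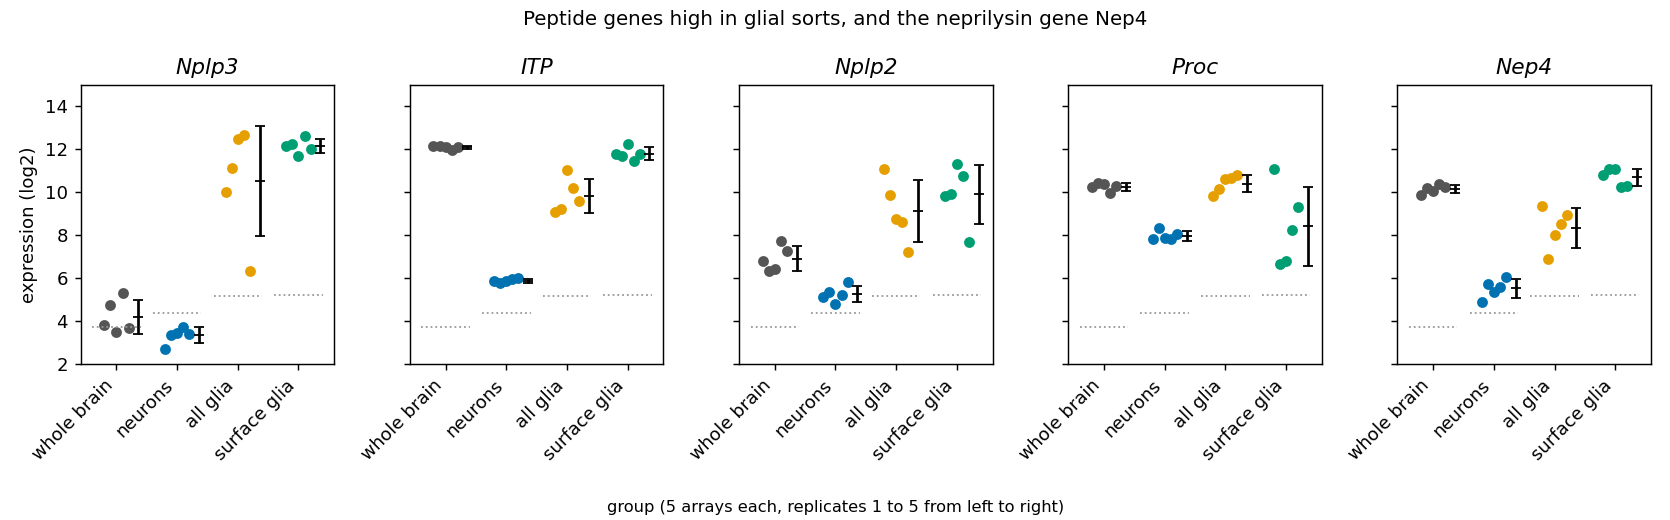
Level of Nplp3, ITP, Nplp2, Proc and the neprilysin gene Nep4 on each array (log2, y axis; 5 points per group, bars are mean and SD, dotted lines the mean 95th percentile of the negative controls). Nplp3 is at the controls in neurons and at 11.69 to 12.62 in surface glia, and ITP and Nep4 are lower in neurons than in every other group.

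Some peptide genes detected in neurons were lower in surface glia. Over the 28 peptide genes the median difference of surface glia from neurons was 0.13, against 0.30 over all named genes. Against neurons, AstC, Dh31, Dh44, sNPF, CCHa2, Nplp1, spab, Gpb5 and the enzyme gene amon were called lower. Only Dh31, Nplp1 and amon were called lower under every setting tried. Dh31 was at 11.39, 11.29, 11.23, 11.31 and 11.19 in whole brain, 10.03, 10.61, 10.88, 10.70 and 10.21 in neurons and 11.27, 10.27, 9.84, 10.52 and 10.59 in all glia. It was at 8.52, 3.90, 3.86, 7.41 and 10.99 in surface glia, a difference of −3.55 (SE 0.91, limma adjusted p = 0.00624). Surface glia replicate 5 was above every neuron array and replicates 2 and 3 were below the percentile of their controls. Nplp1 was at 11.77, 9.46, 8.86, 8.96 and 8.89 in surface glia, with replicate 1 alone inside the neuron range of 10.62 to 12.03, a difference of −1.96 (SE 0.44, adjusted p = 0.00276).

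The other calls against neurons were less stable. Those of AstC, CCHa2, Dh44, Gpb5 and spab each ended without at least 1 single array, the highest adjusted p being 0.103 for Dh44 without surface glia 4. That of spab rested on surface glia 3 at 5.54, with the other arrays at 10.31 to 11.76: without it the difference was −0.81 in place of −1.89. That of sNPF (−2.75) had an adjusted p of 0.0785 with only those groups fitted and also ended without replicate 5 of every group. sNPF was at 3.52 on surface glia 4 and at 9.30 to 10.53 on the others, and without surface glia 4 the difference was −1.42, still called. Neuronal markers were lower in surface glia as well, with elav at 12.02 against 13.04 in neurons, and their part in these differences was not tested.

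Of the 4 genes called lower in surface glia than in all glia, CCHa2 was the only one whose arrays did not overlap. It was at 9.47, 7.36, 7.22, 9.45 and 8.01 in all glia and at 7.05, 4.14, 4.65, 4.52 and 3.96 in surface glia. Surface glia 1 came close to the lowest all-glia array. The difference was −3.44 (SE 0.74, limma adjusted p = 0.00879 over all arrays and 0.0780 with only those groups fitted), and the call also ended with array weights and without replicate 4 of every group. As the surface-glia mean of CCHa2 was below that of the control percentiles, the size of this difference is uncertain.

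In all glia AstC, Ms and Dh44 were called lower than whole brain but varied widely. AstC was at 9.37, 12.86, 5.46, 4.21 and 12.01 in all glia, and Ms at 11.79, 12.15, 7.79, 4.59 and 12.96. Dh44 was at 10.40, 10.01, 9.50, 2.99 and 10.81. For each of these genes all glia replicate 4 was lowest, and for AstC replicate 2 reached the whole-brain range. Without all glia 4 the calls ended, with differences of −2.85 for AstC (limma adjusted p = 0.0514), −2.22 for Ms (0.15) and −1.90 for Dh44 (0.0958). The call for Ms also ended without all glia 3 and without each whole-brain array, and that for Dh44 without whole brain 5. On the surface-glia arrays AstC was at 9.29, 4.06, 5.07, 6.45 and 7.14, Ms at 8.74, 11.85, 4.28, 8.80 and 5.00 and Dh44 at 6.82, 10.18, 3.70, 3.79 and 7.48. The differences in surface glia of AstC, Ms and Dh44 from whole brain were −6.37, −5.66 and −5.69, and these calls held under every setting.

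Of the 5 processing enzyme genes, 4 differed from whole brain by less than 1 log2 unit in neurons, and svr was called lower. The convertase gene amon was at 13.00, 12.73, 12.85, 13.21 and 13.02 in whole brain and at 13.04, 13.01, 12.83, 12.68 and 12.66 in neurons, a difference of −0.12 (SE 0.61). In all glia it was at 11.96, 11.87, 12.50, 10.41 and 12.42 and in surface glia at 11.36, 11.86, 10.65, 7.43 and 8.67. Both glial sorts lay below every neuron and whole-brain array. The difference of surface glia was −2.85 from neurons (SE 0.61, limma adjusted p = 0.00199) and −2.97 from whole brain (adjusted p = 0.000398). That of all glia from neurons was −1.01 and was not called (adjusted p = 0.207).

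None of the 3 amidation genes was called in any comparison. Pal2, a lyase gene, was at 12.71, 12.64, 12.80, 12.87 and 12.83 in whole brain and 12.80, 12.81, 12.78, 12.68 and 12.58 in neurons. It was at 12.62, 12.81, 12.57, 12.08 and 12.41 in all glia and 12.42, 12.51, 11.32, 12.23 and 11.65 in surface glia. Surface glia lay below neurons and whole brain without overlap, with differences of −0.70 (limma adjusted p = 0.0138) and −0.74 (adjusted p = 0.00487), under the threshold of 1. Phm, the hydroxylase gene, was at 10.59, 10.69, 10.61, 10.61 and 10.60 in whole brain, 10.74, 10.62, 10.41, 10.55 and 10.79 in neurons and 10.94, 9.31, 10.57, 11.22 and 11.28 in surface glia. In all glia it was at 10.65, 10.33, 10.44, 7.96 and 10.43, with replicate 4 below the rest. The second Phm probe set was at 7.32 ± 0.25, 7.09 ± 0.94, 7.11 ± 1.19 and 7.07 ± 1.10 in the 4 groups and was not called in any comparison either.

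Pal1, the other lyase gene, was at 7.99, 7.72, 7.85, 8.03 and 7.78 in whole brain and at 8.29, 8.98, 8.59, 9.64 and 8.38 in neurons. All neuron arrays were above all whole-brain arrays, but the difference of 0.90 was under the threshold. Pal1 was at 7.78, 8.03, 6.97, 10.48 and 9.42 in all glia and at 8.14, 7.12, 9.53, 11.61 and 9.07 in surface glia, and both overlapped the other groups.

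The carboxypeptidase gene svr was called lower in each sort. It was at 7.72, 8.09, 8.17, 7.78 and 7.76 in whole brain, 6.02, 6.12, 5.70, 6.02 and 6.20 in neurons, 5.97, 5.94, 5.20, 6.17 and 6.28 in all glia and 5.83, 5.95, 6.52, 5.75 and 6.32 in surface glia. The sorts overlapped one another and none reached whole brain. The differences from whole brain were −1.89 in neurons (SE 0.21, limma adjusted p = 1.81e-06), −1.99 in all glia and −1.83 in surface glia.

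**Figure D4:**
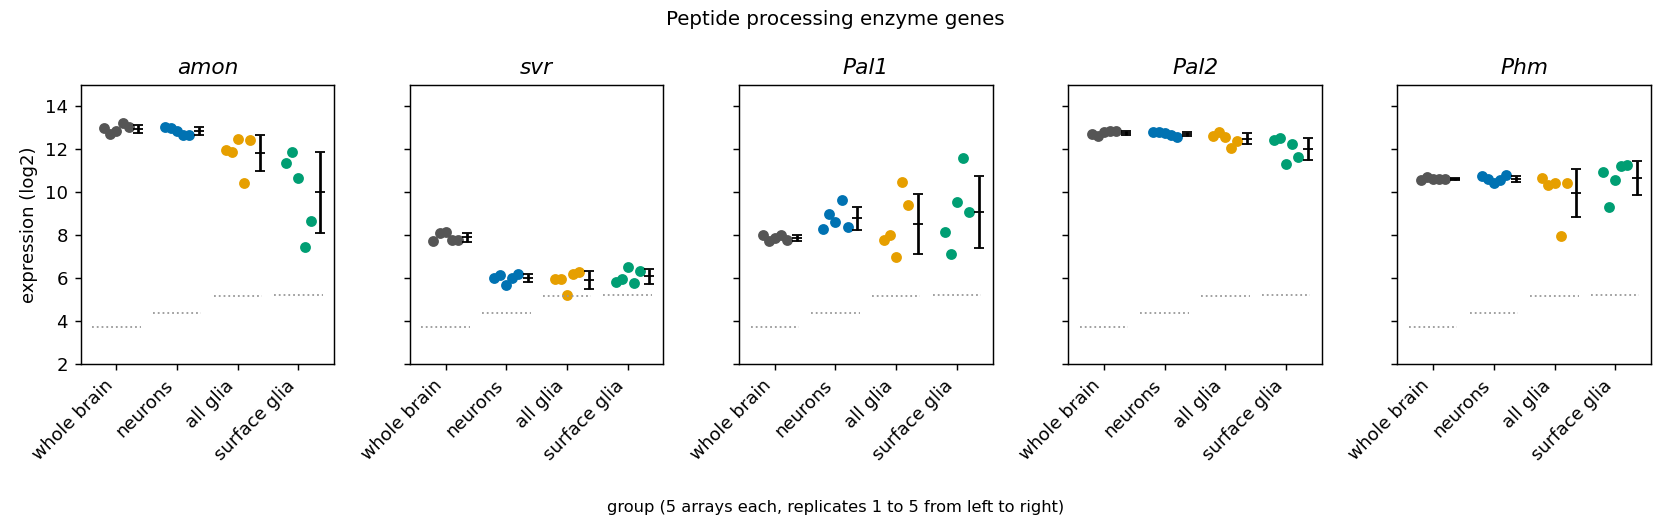
Level of the 5 processing enzyme genes on each array (log2, y axis; 5 points per group, bars are mean and SD, dotted lines the mean 95th percentile of the negative controls). amon, Pal2 and Phm have overlapping neuron and whole-brain points, svr is lower in all 3 sorts, and amon spreads from 7.43 to 11.86 in surface glia.

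The remaining 6 peptide genes fell in no such group. Crz, the gene of the stress-related peptide corazonin, was at 10.25, 10.57, 10.47, 10.52 and 10.54 in whole brain and at 6.58, 6.04, 7.22, 6.58 and 3.89 in neurons. It was at 5.28, 10.57, 10.15, 6.64 and 5.33 in all glia, where 2 arrays were within or near the whole-brain range. The difference of neurons was −4.41 (SE 1.29, limma adjusted p = 0.0195, and 0.0597 without neurons 5), a call that ended in 4 of 34 other settings. In all glia the difference of −2.88 was not called (adjusted p = 0.0648), but it was called without all glia 2, all glia 3 or surface glia 5, with only those groups fitted and with array weights. Surface glia differed by −4.66 (adjusted p = 0.00396).

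Capa, the gene of the capability peptides, was at 8.53, 8.51, 8.56, 7.60 and 7.72 in whole brain and 6.88, 5.63, 6.30, 6.56 and 6.14 in neurons. It was at 7.80, 7.24, 6.0, 8.48 and 7.61 in all glia and 6.53, 7.67, 6.64, 7.28 and 6.90 in surface glia. Its difference from whole brain was −1.88 in neurons (SE 0.37, limma adjusted p = 0.00129) and −1.18 in surface glia (adjusted p = 0.00984). The surface-glia call ended in 4 of 34 other settings, with a difference of −0.53 at the smallest and an adjusted p of up to 0.326. Neurons were below every whole-brain array, and the glial sorts overlapped whole brain.

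CCHa1 was at 6.87, 6.60, 6.79, 6.84 and 7.08 in whole brain and 4.87, 4.73, 5.15, 5.35 and 5.01 in neurons. It was at 5.31, 7.18, 5.20, 6.19 and 5.48 in all glia and 5.25, 5.19, 5.08, 5.26 and 5.18 in surface glia. It differed from whole brain by −1.81 in neurons (adjusted p = 9.65e-05) and by −1.64, a size that is uncertain, in surface glia, where only 2 arrays exceeded the controls. CCAP, the gene of crustacean cardioactive peptide, was at 5.64, 5.74, 5.91, 6.26 and 4.90 in whole brain, 4.78, 5.04, 4.59, 6.31 and 5.08 in all glia and 4.80, 5.03, 5.11, 5.88 and 5.27 in surface glia. It was at 4.15, 4.39, 4.27, 4.36 and 4.78 in neurons, with a neuron mean below that of the control percentiles. The difference of −1.30 was called but is of uncertain size.

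The memory gene amn was at 3.99, 3.96, 4.59, 4.03 and 3.89 in whole brain, above the controls on all 5 arrays. It was within the controls in each sort, at 3.47, 3.53, 3.61, 2.91 and 3.54 in neurons, 3.37, 3.36, 3.41, 3.68 and 3.74 in all glia and 3.13, 3.65, 3.50, 3.67 and 3.58 in surface glia. Nplp4 was at 3.96, 3.55, 4.03, 3.62 and 3.93 in whole brain, above the controls on 3 arrays. It was likewise within the controls in each sort, at 3.37 to 5.63. Neither gene was called in any comparison.

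The receptors of these peptides were compared over a list of 33 genes, 20 of which were measured. In neurons 0 were higher and 2 lower than in whole brain (AstC-R1 and Dh31-R), against 3.46% and 10.5% of all named genes. At an unadjusted p under 0.05 limma gave 0 higher and 5 lower, against 19.4% and 16.4% of all named genes. Another probe set of Dh31-R was not called in that comparison, with a difference of 0.18 (limma adjusted p = 0.882). The call of AstC-R1 ended without whole brain 1 and without neurons 5, and without the latter the difference was −0.74 in place of −1.10. In all glia 2 were higher and 6 lower, against 20.7% and 15.8%, and in surface glia 3 were higher and 9 lower, against 29.1% and 20.8%. The median difference from whole brain in these sorts was −0.28, −0.61 and −0.88, against 0.22, 0.16 and 0.21 over all named genes. Against neurons, 2 were higher and 2 lower in all glia (3.88% and 4.73% of all named genes), and 2 were higher and 6 lower in surface glia (12.1% and 16.3%). Surface glia had 1 higher and 1 lower than all glia (3.05% and 2.38%), and 0 of either when only those groups were fitted.

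SPR, a receptor of the Mip peptides, was at 9.71 to 10.40 in whole brain, 7.56 to 8.64 in neurons, 4.51 to 9.14 in all glia and 4.22 to 7.97 in surface glia. It differed from whole brain by −2.49 in all glia (SE 0.72, limma adjusted p = 0.00694) and by −4.46 in surface glia (adjusted p = 5.81e-05). In neurons SPR lay below every whole-brain array but was not called. Another probe set of SPR, with means of 3.11 in whole brain and 3.18 in neurons, was within the controls in both groups. Pdfr, the receptor of pigment-dispersing factor, went from 8.77 ± 0.13 in whole brain and 7.93 ± 0.74 in neurons to 7.07 ± 0.56 for all glia and 6.39 ± 0.55 for surface glia. The surface glia differed from neurons for Pdfr by −1.54 (adjusted p = 0.00237).

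The receptors Dh44-R1 and TkR86C, for the Dh44 and tachykinin peptides, were lower in both glial sorts than in neurons and than in whole brain. Dh44-R1 was at 7.27 to 9.04 in neurons, 4.93 to 6.52 in all glia and 4.75 to 7.20 in surface glia. TkR86C was at 6.95 to 8.50, 3.29 to 6.94 and 4.31 to 6.48 in the same order. For TkR86C in all glia the call against whole brain ended without all glia 4 (−0.92 in place of −1.57) and that against neurons without neurons 3 (adjusted p = 0.0529). SIFaR, the receptor of SIFamide, was at 8.62 to 10.00 in neurons and at 8.31, 6.20, 3.95, 3.46 and 5.48 in surface glia, a difference of −3.91 (SE 0.72, limma adjusted p = 0.000661). Another probe set of SIFaR was not called in that comparison.

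Some receptors were called higher in a glial sort. Dh31-R was at 7.47 to 7.77 in neurons, 8.06 to 9.79 in all glia and 8.65 to 8.92 in whole brain. It was called higher in all glia than in neurons, but not with the mean of a gene's probe sets. In surface glia, at 7.91 to 8.99, it was not called. CCHa2-R was called higher in surface glia (5.50 to 6.83) than in neurons (4.63 to 5.36) by 1.07. Without neurons 3, surface glia 4 or surface glia 5 that difference was under 1. Dh44-R2, the other Dh44 receptor, was at 10.08, 8.64, 9.69, 6.81 and 9.83 in surface glia, at 6.73 to 7.45 in neurons, 6.45 to 8.04 in all glia and 7.42 to 8.17 in whole brain. Surface glia replicate 4 was within the range of the other groups and the other replicates were above it. Dh44-R2 was higher than in neurons by 1.95 (SE 0.46, limma adjusted p = 0.00361) and higher than in all glia by 1.83 (adjusted p = 0.0222), and another probe set of the gene was not called in either comparison. The call against all glia ended without all glia 2, surface glia 3 or surface glia 5 (highest adjusted p = 0.0633). AkhR was called higher in all glia, but only 1 of its 5 arrays exceeded the controls, and without all glia 1 the difference from whole brain was 0.85 in place of 1.26. PK1-R, called higher in surface glia relative to whole brain, was within the controls there. CCAP-R was called higher than whole brain in both glial sorts (1.26 and 1.22), with replicate 4 of each at 9.13 and 9.23 and the others at 6.20 to 7.30. Without that array the differences were 0.78 (limma adjusted p = 0.133) and 0.71 (0.135), and both calls also ended without any single whole-brain array. Another probe set of CCAP-R differed from whole brain by 0.98 in all glia (limma adjusted p = 0.0288), under the threshold.

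A list of 16 genes of dense core vesicles and peptidases had 12 members measured. Against whole brain, 2 were higher and 3 lower in neurons, when 3.46% and 10.5% of all named genes were. In all glia 0 were higher and 3 lower, against 20.7% and 15.8%, and in surface glia 2 were higher and 3 lower, against 29.1% and 20.8%. The share of the list lower in surface glia, 3 of 12, was near that of all genes. Against neurons, 1 was higher and 0 lower in all glia, when 3.88% and 4.73% of all named genes were. In surface glia 2 were higher and 2 lower than in neurons, near the 12.1% and 16.3% of all named genes. Surface glia had 1 higher and 0 lower than all glia, against 3.05% and 2.38% (0 and 0 when only those groups were fitted). At an unadjusted p under 0.05 limma gave 3 higher in all glia than in whole brain (35.3% of all named genes), 2 lower in all glia than in neurons (13.2%) and 3 lower in surface glia than in all glia (9.52%). The median difference from whole brain was 0.17, 0.17 and −0.37. The gene 7B2, whose product is known as a chaperone of the convertase, was lower than whole brain in each sort. It was at 13.07 to 13.37 in whole brain, 11.39 to 12.18 in neurons, 10.68 to 11.54 in all glia and 9.75 to 11.61 in surface glia. The differences were −1.44 (SE 0.29, limma adjusted p = 0.00163), −2.01 and −2.41. Cadps, which acts in the release of dense core vesicles, was at 12.67 to 12.92 in neurons and at 12.57, 11.81, 10.19, 8.36 and 11.37 in surface glia, a difference of −1.90 (adjusted p = 0.0306). That call ended without neurons 1, 2 or 3 or surface glia 3 or 4, and without surface glia 4 the difference was −1.27.

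The neprilysin genes, whose products degrade peptides, differed from one another. Nep4 was at 9.86, 10.18, 10.07, 10.39 and 10.26 in whole brain and at 4.88, 5.72, 5.35, 5.60 and 6.07 in neurons. It was at 9.34, 6.88, 8.01, 8.50 and 8.92 in all glia and at 10.78, 11.08, 11.08, 10.23 and 10.31 in surface glia. The neuron arrays were below all others. Nep4 was higher than in neurons by 2.81 in all glia (SE 0.35, limma adjusted p = 2.93e-05) and by 5.17 in surface glia (adjusted p = 2.06e-09).

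Nep1 ran the other way. It was at 7.14 to 7.33 in whole brain, 8.62 to 9.29 in neurons and 5.69 to 8.04 in surface glia. Neurons were higher than whole brain by 1.84 (SE 0.43, limma adjusted p = 0.00494), and the difference of surface glia from neurons was −2.26. The differences of Nep3 from whole brain were −1.91 for neurons, −2.57 for all glia and −2.37 for surface glia. Nep2 was higher in surface glia than in neurons by 1.23 (adjusted p = 0.00935). Nep5 was called higher in surface glia relative to whole brain but was within the controls in both groups. Rab2, which acts in the making of dense core vesicles, was higher in neurons than in whole brain by 1.37 (adjusted p = 0.00255).

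Peptide genes had a higher median SD between replicate arrays than all named genes, but among bright genes the gap was small in whole brain and all glia. The median SD over the 28 peptide genes was 0.190, 0.412, 0.817 and 1.02 in the whole-brain, neuron, all-glia and surface-glia groups, against 0.153, 0.275, 0.605 and 0.627 over all named genes. The 2572 named genes with the highest whole-brain means held 17 peptide genes. The median SD of these 17 was 0.128, 0.504, 0.807 and 1.85 in the same order, against 0.120, 0.256, 0.723 and 0.899 over the 2572. A range of at least 4 log2 units over the 5 arrays was found for 0 peptide genes in whole brain and 1 (CCHa2) in neurons, against 7 for all glia and 11 for surface glia. All named genes, dim ones included, had such a range in 0.025%, 0.109%, 6.91% and 11.2% of cases. The 7 in all glia were Pdf, AstC, Dh44, Mip, Nplp3, Crz and Ms, and the enzyme genes amon and Pal1 joined the 11 in surface glia.

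Arrays of a sort also differed in how many peptide genes exceeded their controls. In whole brain 27 or 28 of 28 did, in neurons 18 to 23, in all glia 17 to 25 and in surface glia 13 to 22. As shares these were 96.4% to 100%, 64.3% to 82.1%, 60.7% to 89.3% and 46.4% to 78.6%. The share of all named genes also fell, from 76.2% to 77.8% in whole brain to 68.5% to 74.2% in neurons. It was 49.9% to 68.7% in all glia and 49.5% to 69.3% in surface glia. The lowest were surface glia 3 with 13 and surface glia 4 with 16. Over all named genes surface glia 3 had 63.3% above its controls and surface glia 4 had 49.5%, and all glia 4 had 17 peptide genes and 49.9%. A mean level of 10.3 for 3 muscle markers set surface glia 3 apart, with the other surface glia arrays at 4.52 to 5.85.

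Several peptide genes were high on a single glial array, and these were chosen after their values were seen. Akh, the gene of adipokinetic hormone, which is made by neurosecretory cells of the corpora cardiaca, was at 13.21 on surface glia 1 and at 5.81 to 6.59 on the others. Its range was 4.84 to 5.66 in whole brain, 5.11 to 5.76 in neurons and 5.93 to 7.65 in all glia. Surface glia were called higher than whole brain by 2.23 (SE 0.96, limma adjusted p = 0.0476), but without surface glia 1 the difference was 0.81 (adjusted p = 0.0274), under the threshold. The call also ended without any single array of the other groups (adjusted p of 0.0503 to 0.0845). Only 2 of all named genes were at least 4 log2 units above the other 19 arrays on surface glia 1, Akh and CatB.

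FMRFa, the gene of the FMRFamide-like peptides, was at 12.95 on surface glia 2 and at 5.51 to 6.30 on the others, with 8.08 to 8.92 in whole brain. It was 1 of 3 genes that stood that far above all other arrays on surface glia 2. Without surface glia 2 FMRFa was called lower than whole brain in neurons (−2.39, limma adjusted p = 0.00201 in place of 0.0937), in all glia (−1.86, adjusted p = 0.00412) and in surface glia (−2.67, adjusted p = 0.000364).

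Mip and Crz were both high on surface glia 5, at 11.50 and 11.54, with the other surface glia arrays at 3.83, 4.0, 4.60 and 6.71 for Mip and at 6.22, 4.15, 3.65 and 3.48 for Crz. On that array 57 named genes were at least 4 log2 units above all 19 others. The Mip level was 9.33, 9.14, 9.15, 9.18 and 9.20 in whole brain, 7.96, 7.19, 7.29, 6.86 and 4.56 in neurons and 8.37, 9.72, 5.55, 5.09 and 11.45 in all glia. The call of Mip as lower in surface glia than in whole brain (−3.07, limma adjusted p = 0.0408) ended without any 1 whole-brain array and without surface glia 1, 2, 3 or 4. Pdf on all glia 5, at 10.63, was described above, and on that array the astrocyte gene alrm was at 9.70, with the other all-glia arrays at 3.84 to 4.82. The other astrocyte gene measured, Gat, was at 3.80 on that array and within the controls in the group.

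**Figure D5:**
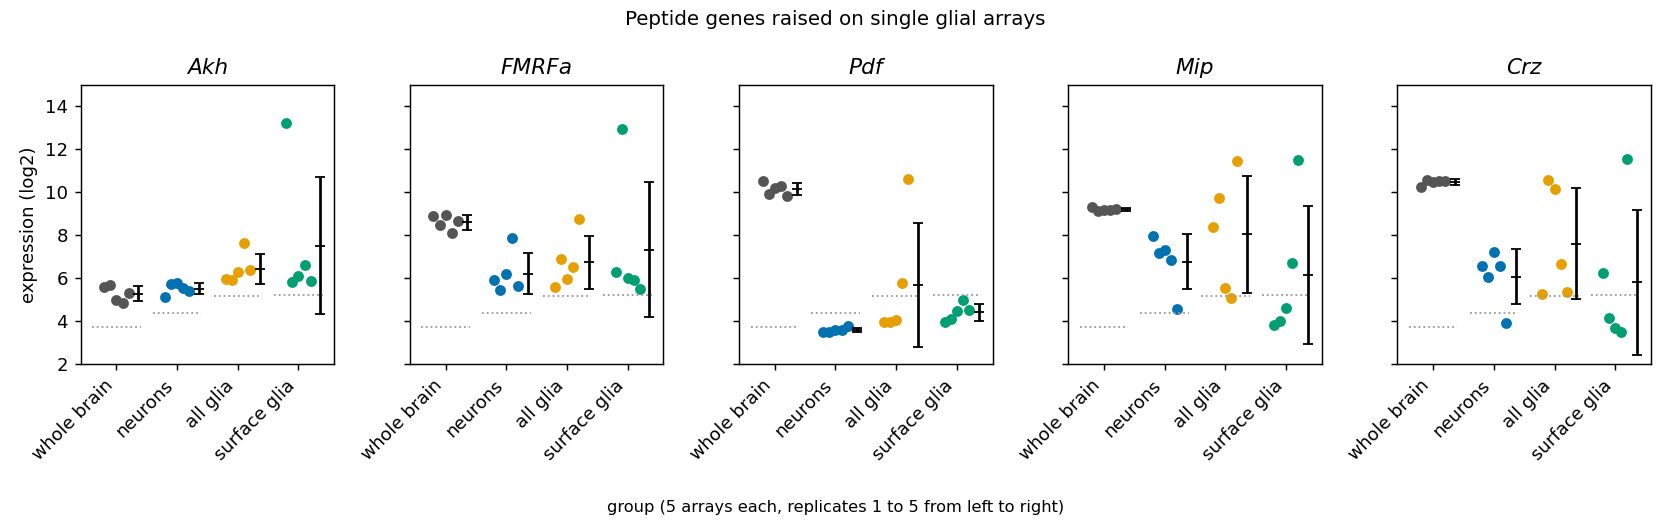
Level of Akh, FMRFa, Pdf, Mip and Crz on each array (log2, y axis; 5 points per group, bars are mean and SD, dotted lines the mean 95th percentile of the negative controls). Akh at 13.21 and FMRFa at 12.95 each stand alone among 5 surface glia arrays, and Pdf at 10.63 alone among 5 all-glia arrays.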

How the data were processed

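The authors' deposited values are on a log2 scale, 1 per probe set and array, and were made with RMA, affy and limma per the submitters' processing notes, with no versions or settings given in the sources used here. No header states the scale: it follows from RMA, and the range of the values does not contradict it. Of 18952 probe sets, 183 control probe sets were left out and 18769 tested. The probe annotation gave 1 symbol to 13646, several to 402 and none to 4721. The brightest probe set by mean over the 20 arrays stood for each of 11981 named genes.

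The comparisons used R 4.3.3 and limma 3.58.1. All 20 arrays entered the fit, with a mean for each group, empirical Bayes and Benjamini-Hochberg adjustment over all probe sets. Tested on simulated data with the spread of each group, surface glia against neurons, this fit recovered most changes but made more false calls than its adjustment allows. Fitting only those groups made fewer false calls, though still more than allowed, and recovered fewer changes. Replicates came from different bottles and days per the labels' protocols, and the number of arrays limits the precision. Members and lists were chosen with earlier results of these data known. Values on every array were given for Nplp3, ITP, the enzyme genes and the 6 peptide genes per group with the largest range of means. From the other lists, up to 5 called genes per comparison with the largest differences were eligible. Cell type markers were summarised as list means per array.

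The alternatives were centring on array medians, a repeated quantile normalization, trend and robust settings, only the 2 groups compared, array weights, a filter on dim probe sets, the mean of a gene's probe sets, a replicate block, leaving out all glia 4 with surface glia 4, each replicate number or each array. A set of 50 other control probe sets was tried for the grouping of genes and was chosen after seeing the data. Same-numbered samples were taken as sharing only a number.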

Additional observations from a re-analysis of the deposited data

Results flagged for a closer look

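Within the groups of 5 arrays, the highest or lowest array stood apart from the other 4 by Dixon's criterion in 17 of 132 tests of 33 genes in 4 groups. The criterion gives about 1 in 20 for independent values with a normal spread. The 33 genes share the same 20 arrays, and the share of all named genes flagged this way was not computed. The count therefore does not show an excess among these genes. Surface glia and all glia had 7 each, whole brain 2 and neurons 1.

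High single arrays in surface glia were Akh at 13.21 on replicate 1, FMRFa at 12.95 on replicate 2, CCHa2 at 7.05 and Nplp1 at 11.77 on replicate 1, and SIFa at 8.50 on replicate 4. Low ones were sNPF at 3.52 on replicate 4 and spab at 5.54 on replicate 3.

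In all glia, Pdf was high at 10.63 on replicate 5. On all glia 4 Nplp4 at 5.44, CCAP at 6.31 and Akh at 7.65 were high, and Dh44 at 2.99, Nplp1 at 10.76 and Phm at 7.96 were low. All glia 4 had 17 of 28 peptide genes and 49.9% of all named genes above its controls, each the lowest of that group.

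In whole brain, amn was at 4.59 on replicate 3 and Phm at 10.69 on replicate 2. In neurons, amn was low at 2.91 on replicate 4. These last arrays differed from the nearest other array by 0.56, 0.08 and 0.56, and amn in neurons was within the controls throughout.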

How the results depend on the processing

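Of 198 differences (33 genes in 6 comparisons), trend and robust settings changed no call, and no difference that was called changed sign under any setting. Fitting only the 2 groups compared added 10 calls and ended 10, array weights added 9 and ended 3, and a repeated quantile normalization added 2 and ended 13. In each such case that the report does not discuss, the cause was not tested.

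Among the members, surface glia had 5 genes lower than neurons after the repeated quantile normalization, and against all glia 0 higher and 0 lower with only those groups fitted and 2 lower with array weights. With only the groups compared, and also with array weights, 11 genes were lower in all 3 sorts, in place of 7. A replicate block added 2 calls and ended 2; same-numbered samples deviated together in 2 of 30 pairs (r over 0.1, from −0.02 to 0.38), and 21 of 60 samples correlated best with their own number. Under the replicate block 1 vesicle or peptidase gene was lower in surface glia than all glia, in place of 0.

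Leaving out 1 replicate number or 1 array gave these ranges for the members. Against whole brain, neurons had 12 to 14 lower, all glia 1 to 3 higher and 8 to 14 lower, and surface glia 2 to 4 higher and 16 to 21 lower. Against neurons, all glia had 3 to 6 higher and surface glia 4 to 10 lower. Surface glia had 1 to 6 lower than all glia. The genes lower in all 3 sorts numbered 7 to 9, those higher in glia than neurons 3 to 6, those detected in neurons and not called lower 15 to 17 and the remainder 3 to 7.

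Receptor counts were small and moved more. In neurons against whole brain, 2 were higher with only those groups or with array weights and 1 without all glia 4 and surface glia 4, and 1 was lower after median centring and 0 after the repeated quantile normalization. In all glia against whole brain, 1 was higher after quantile normalization, with the filter on dim probe sets or with the mean of probe sets. That mean also gave 1 higher in surface glia. In all glia against neurons, 1 was higher under median centring, quantile normalization, only those groups, array weights, the dim filter or without all glia 4 and surface glia 4, 0 with the mean of probe sets, and 1 was lower under quantile normalization or only those groups. In surface glia against neurons, 1 was higher under centring, array weights or without all glia 4 and surface glia 4. Against all glia, 0 were higher and 0 lower with only those groups and 3 lower without all glia 4 and surface glia 4. Leaving out replicates gave, against whole brain, 0 to 1 higher and 1 to 4 lower in neurons, 1 to 3 higher and 4 to 8 lower in all glia, and 0 to 3 higher and 8 to 10 lower in surface glia. Against neurons it gave 0 to 3 higher and 1 to 3 lower in all glia and 1 to 2 higher and 6 to 7 lower in surface glia, and between the glial sorts 0 to 1 higher and 0 to 4 lower.

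Of the vesicle and peptidase genes, 2 were higher in all glia than in whole brain after quantile normalization, and 1 in surface glia with the dim filter. Median centring gave 4 lower in surface glia than in neurons. Surface glia against all glia gave 0 higher with only those groups, and 2 higher and 1 lower without all glia 4 and surface glia 4. Leaving out replicates gave 0 to 1 higher in all glia and 2 to 3 in surface glia against whole brain, 2 to 3 lower in neurons and in surface glia. Against neurons it gave 0 to 1 lower in all glia and 1 to 2 higher and 1 to 4 lower in surface glia, and between the glial sorts 1 to 2 higher and 0 to 1 lower.

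With 50 other control probe sets, chosen after seeing the data, each group of genes kept its count. The planned count of sequence features in the precursors was not run. Genes near the negative controls have only bounds or uncertain sizes, as stated beside them.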
